A study of Drosophila melanogaster with 2 samples.

Results

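Among the 13968 protein-coding genes of Drosophila melanogaster, 8 with many ChIP-seq summits of GFP-tagged Odd skipped protein are described here: sbb, px, tara, jing, CHES-1-like, crp, RapGAP1 and CG1677. They were chosen by their number of summits, the single bases of highest signal in the deposited peaks, in the IDR list. IDR, the irreproducible discovery rate, measures how well the order of peaks by strength repeats in the replicates. The list used held the 4291 strongest peaks of both replicates pooled, so a summit in it can lack a match in a replicate. A summit was given to a gene when it lay in the gene span, from the first to the last base of all annotated transcripts, or within 5 kb of it, which is called the territory here. The counts, signals and ranks come from the libraries that chose the genes, so they are a description and carry no test.

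The assay was ChIP-seq on a transgenic fly line, named odd-GFP in the labels, with an insertion that targets odd and stably expresses Odd with GFP at its C terminus (odd-eGFP). The tagged protein was recovered with an antibody against GFP from whole embryos of mixed sex aged 0 to 16 h, as 1 group of 2 biological replicates, after sonication to 200 to 800 bp. The files used hold 1 condition, and the control was not analysed here. Depth per replicate is unknown, because the files list peaks only, and whole embryos merge all cell types and stages.

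Odd skipped is a pair-rule protein with zinc fingers, made by 1 of the genes that divide the early embryo into repeating units, and it is later made in other tissues, among them the gut and the joints of the leg. In a fly gene, start sites mark promoters, and introns often hold enhancers, so many separate sites can lie in 1 long gene. Of the genes described, sbb (scribbler, also called brakeless) encodes a transcriptional corepressor, px (plexus) a nuclear protein that limits wing vein formation, tara (taranis) a SERTAD-family protein tied to the trithorax group and the cell cycle, and jing a zinc-finger protein related to mammalian AEBP2. CHES-1-like encodes a fork head protein, crp (cropped) a basic helix-loop-helix protein of the AP-4 type, and RapGAP1 a GTPase-activating protein for the small GTPase Rap1. CG1677 is known here by its code name alone and is given no role, so the word regulator was not applied to it.

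For 5 of the genes, the 201 bp around the strongest summit are printed to show what kind of sequence carries the signal outside exons. These 5 windows held no annotated exon. The strongest summits of px and sbb, which ranked above these, are not among them, nor is that of jing. All are read 5′ to 3′ on the strand of the gene from the NCBI Release 6 sequence of the genome (dm6), and capitals mark the letters GAGAGAG, a short word of the GAGA factor, a protein that opens chromatin at promoters. The CG1677 window is chrX:7336947-7337147 on the minus strand, the RapGAP1 window chr2L:7530600-7530800 on the minus strand, and the tara window chr3R:16221786-16221986 on the plus strand. The CHES-1-like window is chrX:7706823-7707023 and the crp window chr2L:16269508-16269708, both on the minus strand.
CG1677: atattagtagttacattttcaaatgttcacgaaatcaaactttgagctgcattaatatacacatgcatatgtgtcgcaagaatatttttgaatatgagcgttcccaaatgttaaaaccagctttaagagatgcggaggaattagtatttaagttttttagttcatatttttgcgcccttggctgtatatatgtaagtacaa
RapGAP1: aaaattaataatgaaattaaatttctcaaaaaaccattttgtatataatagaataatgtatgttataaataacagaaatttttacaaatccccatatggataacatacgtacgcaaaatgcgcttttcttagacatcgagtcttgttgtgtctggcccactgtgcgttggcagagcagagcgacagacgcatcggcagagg
tara: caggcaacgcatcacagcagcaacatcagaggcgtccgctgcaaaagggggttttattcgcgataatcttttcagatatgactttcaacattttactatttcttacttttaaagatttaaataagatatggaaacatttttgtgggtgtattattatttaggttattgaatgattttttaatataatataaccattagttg
CHES-1-like: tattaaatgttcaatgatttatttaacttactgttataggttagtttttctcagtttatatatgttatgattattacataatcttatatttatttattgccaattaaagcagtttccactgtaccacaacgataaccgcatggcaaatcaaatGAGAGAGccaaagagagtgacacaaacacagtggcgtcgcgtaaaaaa
crp: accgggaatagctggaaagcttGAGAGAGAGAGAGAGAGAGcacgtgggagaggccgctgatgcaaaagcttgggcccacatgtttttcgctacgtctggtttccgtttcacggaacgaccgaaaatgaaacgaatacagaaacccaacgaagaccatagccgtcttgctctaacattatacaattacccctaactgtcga
The windows of CG1677, tara and CHES-1-like were rich in A and T, with a GC content of 31.3%, 31.3% and 30.8%. The RapGAP1 window had 35.3% and the crp window 48.8%. The crp window held 7 overlapping matches to GAGAGAG in 1 unbroken run, the CHES-1-like window held 1, and the other windows held none. None of the 5 held the Odd word ACAGTAGC on either strand.

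All 8 genes held at least 10 IDR summits, against 39.7% of protein-coding genes with at least 1 and 0.129% with at least 10, and since this count chose the genes nothing is read from it. CG1677 held 17 summits, sbb 15, RapGAP1 14, tara 12, CHES-1-like and jing 11 each, and crp and px 10 each, which makes 100 in all. Of these, 91 lay in the gene span and 9 within 5 kb of it. Just inside the limit stood crp and px, with 5 other genes at 10 summits (rdx, mam, Eip75B, Svil and sick), and just outside it stood 8 genes at 9, among them pnt and bun. In all 18 genes reached 10, and they made up 2.14% of the 842 genes at least as long as crp.

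Each replicate was also counted alone, with as many of its strongest peaks as the IDR list of 4291 holds. In replicate 1 the counts were 18 for CG1677, 15 for sbb, 16 for RapGAP1, 13 for tara, 12 for CHES-1-like, 9 for jing, 7 for crp and 9 for px. In replicate 2 they were 17, 13, 10, 14, 13, 11, 7 and 11 in the same order. RapGAP1 had the widest gap between replicates of the 8, and crp was the only 1 of them below its IDR count in both. The sum over the 8 genes was 99 in replicate 1 and 96 in replicate 2.

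**Figure D1:**
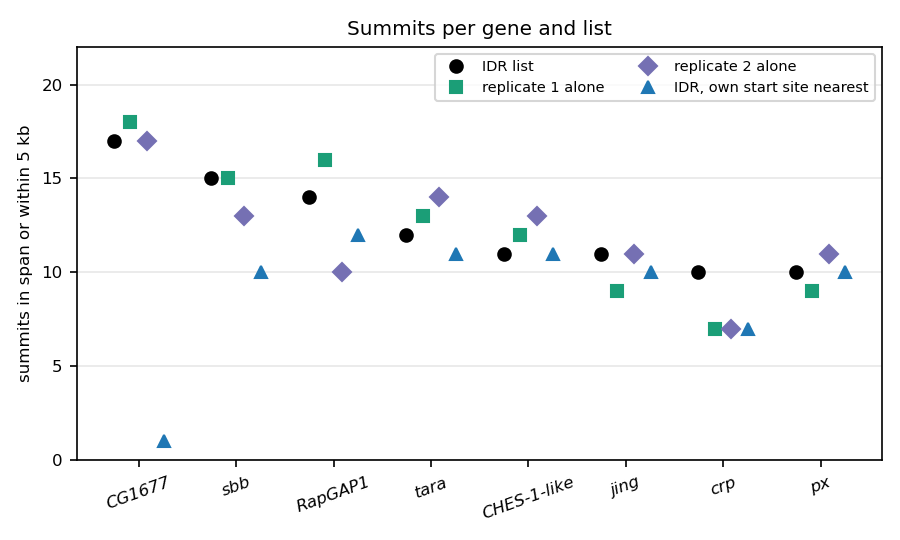
Number of summits in the span or within 5 kb (vertical axis) for the 8 genes, in the IDR list (circles), in replicate 1 (squares) and replicate 2 (diamonds) alone, and of IDR summits whose nearest protein-coding start site is the gene's own (triangles). CG1677 drops from 17 to 1 when only its own start sites count, while the other genes keep 7 to 12.

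The label long held for the annotated spans, which ran from 24.2 kb for crp to 124.7 kb for CG1677, against a median of 2.16 kb over protein-coding genes. CHES-1-like spanned 27.0 kb, tara 34.7 kb, px 67.8 kb, sbb 79.1 kb, RapGAP1 81.2 kb and jing 119.8 kb. Length did not order the counts, as jing is nearly as long as CG1677 and held 11 summits. For CG1677 the length rests on 1 of 4 transcripts, whose start site lies 119.6 kb from the next one, and for jing likewise on 1 of 4, with the next start site 108.5 kb away.

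Summits per kb of span separated the genes more than the counts did. The densest were crp with 0.414 and CHES-1-like with 0.407 summits per kb, both above the highest value among the 834 other genes of this length, 0.308 in simj. For crp this rests on 10 summits of the IDR list, while each replicate alone counted 7 in its territory. The values of simj in each replicate are not given here. Then came tara with 0.231, sbb with 0.177, RapGAP1 with 0.160, px with 0.148, CG1677 with 0.128 and jing with 0.0751. The median of the 8 was 0.169 per kb, against 0.00940 over the other long genes, whose median count was 1 and of which 310 (37.2%) held no summit. Jing, the sparsest over its full annotated span, was above 85.2% of the long genes in summits per kb. This density is made from the summits that chose the genes, so nothing is read from its gap to the other long genes.

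**Figure D2:**
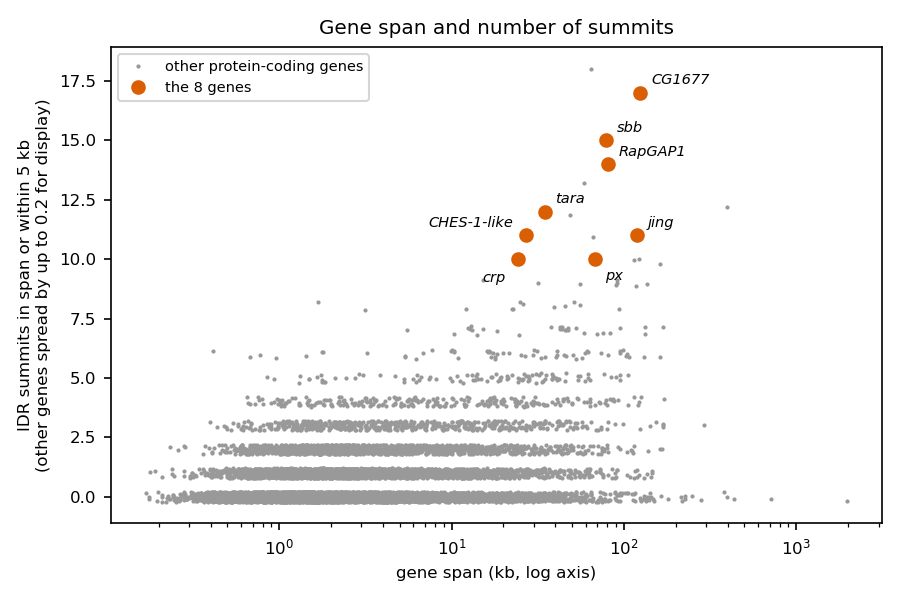
Gene span in kb on a log axis (horizontal) and IDR summits in the span or within 5 kb (vertical) for the 8 genes (labelled points) and the other protein-coding genes (small grey points, shifted by up to 0.2 for display). The 8 genes lie between 24.2 and 124.7 kb and 10 and 17 summits, and most genes of that span hold far fewer.

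Most of the summits lay in introns. Of the 100, 76 lay in introns (exact 95% interval 66.4 to 84.0%, for counting error only), against 39.1% of all 4291 IDR summits. Promoters, taken as within 500 bp of any annotated start site, held 16 (9.43 to 24.7%), against 45.7% of all. Another 5 were intergenic, against 12.4%, 2 lay in coding or untranslated exon sequence and 1 in another exon. None of the 91 summits inside a gene span could be classed as intergenic, so nothing is read from the low intergenic share. Introns make up much of any long gene, so taking summits from long spans can raise the intron share and lower the promoter share by itself. How large a part gene length has in these shares was not tested.

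**Figure D3:**
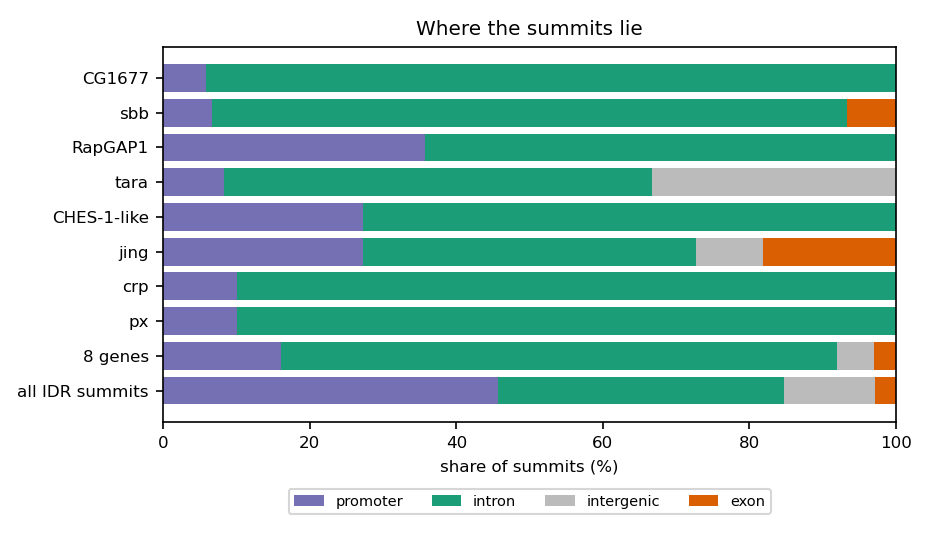
Share of IDR summits in percent (horizontal axis) by location for each of the 8 genes, for their 100 summits together and for all 4291 IDR summits. Introns hold 76% of the 100 summits and 39.1% of all, promoters 16% and 45.7%.

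In 6 of the 8 genes the intron of the longest transcript with the most summits was also its longest intron. In all, 73 of the 100 summits lay in the intron with most summits of each gene, whether the longest or not. Some of the 73 were classed as promoter or exon summits, so they are not all among the intron summits counted above. The first intron of tara, 30.3 kb, held all 8 summits inside that gene, the first intron of CHES-1-like, 19.0 kb, held 9 of 11, and the first intron of jing, 110.4 kb, held 8 of its 9 in the span. In sbb the second intron, 65.6 kb, held 13, and in px the twelfth, 35.1 kb, held 7. Of RapGAP1, the second intron held 7 summits in 34.7 kb and the longer first held 6 in 41.8 kb.

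Just over 50% of the start sites had a summit. Of 23 annotated start sites of the 8 genes, 12 (52.2%) had a summit within 500 bp, against 13.3% of all 19630 start sites of protein-coding genes. The count of summits that chose the genes can raise this share by itself. All 3 start sites of jing had one, at 57, 13 and 2 bp, 3 of 5 in RapGAP1, 2 of 4 in CHES-1-like, 1 each in sbb, tara, px and crp, and none of the 3 in CG1677. The summits at these start sites were of very different strength: the one at px ranked 6 of 4291, where rank 1 is the strongest, and the 3 at jing ranked 3116, 3918 and 4102.

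The strength of the summits differed widely within and between genes. Of the 100, 19 (11.8 to 28.1%) were in the strongest 10th of the IDR list, against 10% by construction, and 59 were in its stronger 50%. The median rank was 1756, against 2146 over the list, and the median signal 247 against 219. By median rank the strongest genes were tara at 520 and CHES-1-like at 660, followed by CG1677 at 1582, RapGAP1 at 1922, sbb at 1973 and crp at 2024. The weakest were px at 2420.5 and jing at 3522. Signal is the peak caller's own score, which grows with depth, so it is used to rank peaks in 1 list only.

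**Figure D4:**
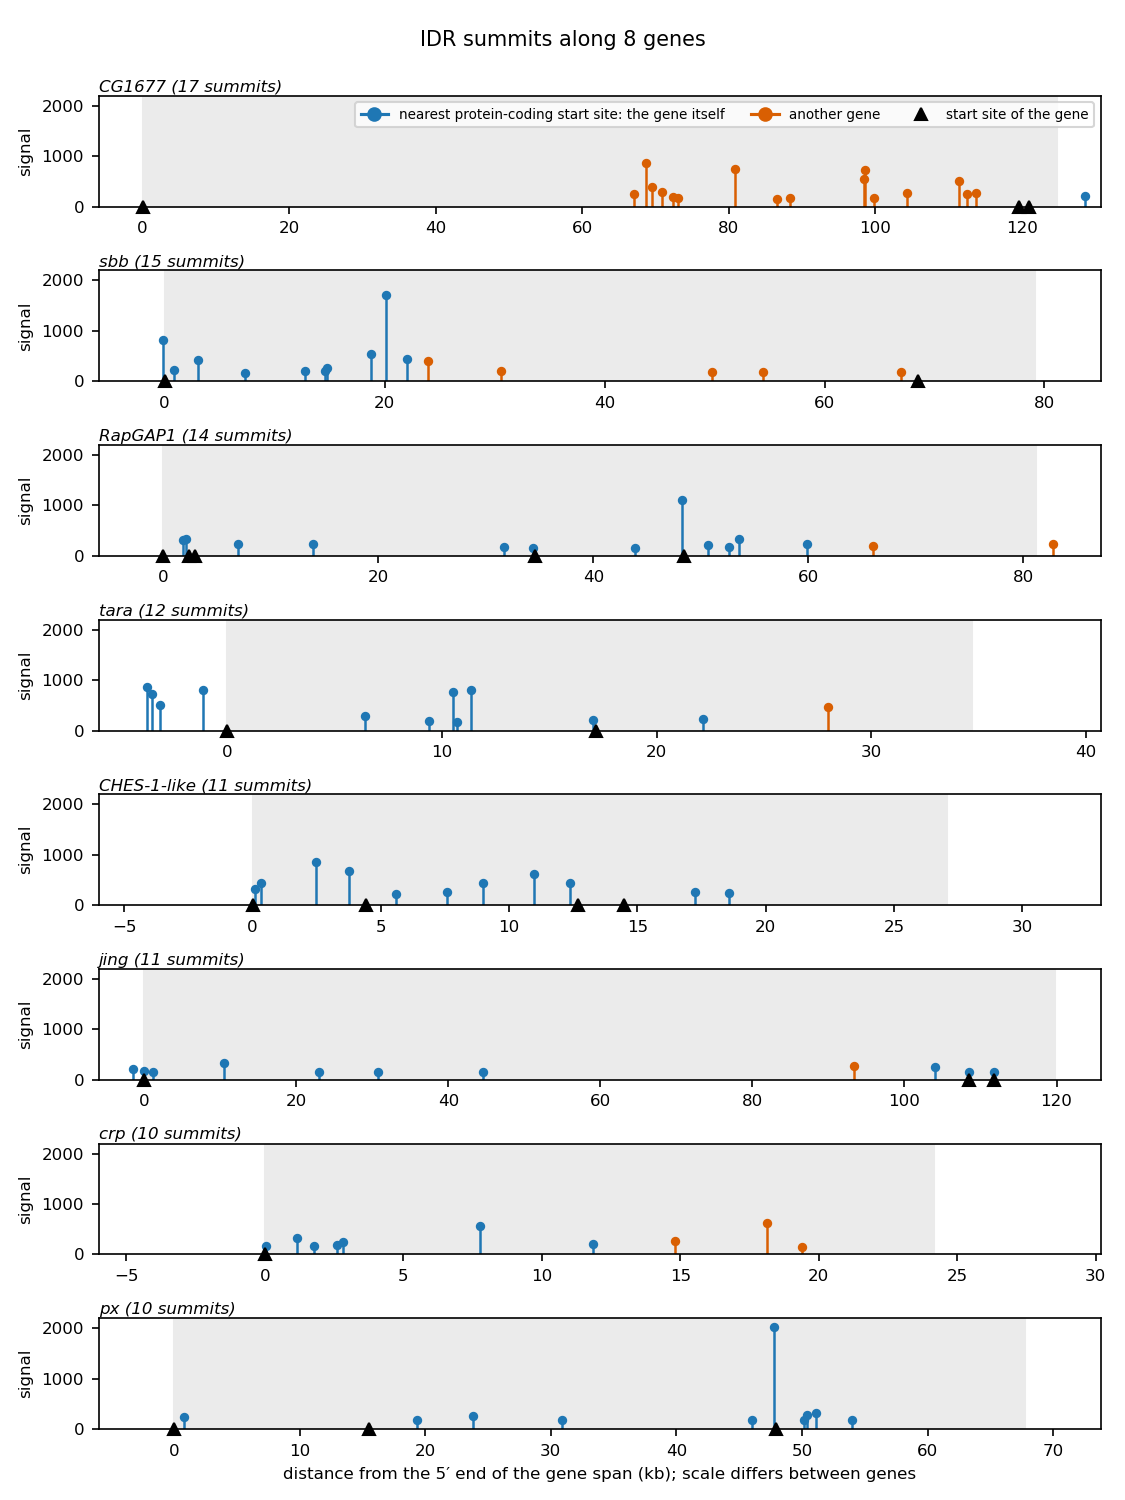
Signal of each IDR summit (vertical axis, the deposited score) against distance in kb from the 5′ end of the gene span (horizontal axis, a different scale for each gene), with the span in grey and start sites as triangles. Blue stems have the gene's own start site as the nearest protein-coding one and orange stems another gene's: the tallest summits are those of px and sbb, with signals of 2015 and 1707, and the CG1677 stems are almost all orange.

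Plexus held the strongest summit of the 8 genes and was otherwise weakly marked. The px gene (FBgn0003175) lies at chr2R:22494297-22562065 on the minus strand. Its strongest peak, chr2R:22514089-22514521, ranked 6 of 4291 with a signal of 2015, and ranked 6 in replicate 1 and 5 in replicate 2. It lay 209 bp from a start site used by 1 of the 6 px transcripts, 48.0 kb into the gene. The other px summits ranked from 1173 to 3012, and the start site of 4 transcripts had its nearest summit 820 bp away, at rank 1961. All 10 summits had px as the gene with the nearest protein-coding start site, and 8 were matched within 100 bp in both replicates.

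Scribbler had its strongest site in the second intron. The sbb gene (FBgn0285917) lies at chr2R:18278198-18357296 on the minus strand, and its strongest peak, chr2R:18336843-18337422, lay 20.1 kb from the 5′ end. It ranked 10 with a signal of 1707, and ranked 10 in replicate 1 and 9 in replicate 2. A summit 145 bp upstream of the start site shared by 5 of the 7 transcripts ranked 165, with ranks of 204 and 139 in the replicates, and another in the second intron, 18.7 kb from the 5′ end, ranked 409. The second start site had its nearest summit 1551 bp away. From 30.6 to 49.8 kb no summit was found. Of the 15 summits, 10 had sbb as the nearest gene, 2 had Tango8, 2 CG14505 and 1 CG14502, and 8 protein-coding genes lie wholly inside sbb.

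RapGAP1 (FBgn0264895, chr2L:7497805-7578980, minus strand) had its strongest summit at an internal start site, 126 bp from it and 48.3 kb into the gene. The peak, chr2L:7530504-7530978, ranked 63 with a signal of 1101, and ranked 71 and 60 in replicates 1 and 2. The next strongest summits of the gene ranked 1022 in the second intron and 1054 at a start site near the 5′ end. RapGAP1 had 5 promoter summits, more than any other of the 8 genes, and 1 of them, downstream of the gene, was at Ziz, 118 bp from its start site. RapGAP1 was the nearest gene to 12 of its 14 summits, and 9 were matched in both replicates.

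Taranis (FBgn0040071, chr3R:16225651-16260329, plus strand) had strong summits both upstream of its first start site and in its first intron. Upstream, 4 summits lay 3765, 3495, 3155 and 1136 bp away, at ranks 136, 223, 491 and 171. The strongest in the pooled list, in chr3R:16221720-16222013, had a signal of 860 and ranked 81 in replicate 1 and 226 in replicate 2. In the first intron, a pair of summits 10.5 and 11.3 kb from the 5′ end was about as strong, at ranks 189 and 173. The second of these was the strongest of the gene in replicate 2, at rank 149. The internal start site had a summit at 119 bp with rank 2189. Of the 8 genes tara had the lowest median rank number, and 10 of its 12 summits were matched in both replicates. The nearest gene was tara for 11 summits and bor for 1.

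CHES-1-like (FBgn0029504, chrX:7682338-7709385, minus strand) was the only 1 of the 8 genes with every summit matched in both replicates. All 11 summits lay in its span and had it as the nearest gene, and the weakest ranked 2275. The strongest, in chrX:7706772-7707189, lay in the first intron 2.46 kb from the 5′ end, ranked 133 with a signal of 863, and ranked 212 in replicate 1 and 98 in replicate 2. Others in that intron ranked 245 and 319. Near the first start site, 2 summits at 112 and 313 bp ranked 1127 and 660. The last 8.50 kb of the gene held none.

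Cropped (FBgn0001994, chr2L:16263556-16287730, minus strand) was the shortest gene and repeated least well in the replicates. Of its 10 summits 5 were matched in both, 2 in 1 and 3 in neither, and 4 had no summit within 100 bp even in the relaxed list of replicate 1, which holds 30000 peaks. The strongest, in chr2L:16269468-16269749, lay in the second intron with a signal of 624 at rank 301, and ranked 324 and 282 in the replicates. Its nearest start site was that of CG4935, 7467 bp away. The next, in the first intron 7.77 kb from the 5′ end, ranked 361, with ranks of 391 and 370. These 2 summits stood well above the others at crp, which ranked 1108 or lower.

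Jing (FBgn0086655, chr2R:6502006-6621792, plus strand) had many summits and no strong one. The strongest, in chr2R:6512365-6512592, ranked 1010 with a signal of 340, and ranked 1067 and 1090 in the replicates. It lay in the first intron, 10.5 kb from the 5′ end. A stretch of 48.8 kb, from 44.5 to 93.3 kb, held no summit, which is 40.7% of the span. Of all the pooled relaxed peaks with a summit in its territory, 14.7% had passed IDR, about the 14.3% of the whole list. In the other genes this share was 23.0 to 45.5%, highest in crp and CHES-1-like.

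The summits of CG1677 (FBgn0029941, chrX:7281089-7405797, minus strand) mostly had the start site of another gene as the nearest, 305 to 6407 bp away. The first 67.1 kb of the span, 53.8% of it, held none, and 16 summits lay in the second intron, 73.9 kb, of the only transcript that uses the far start site. The start sites of CG1677 had no summit within 500 bp, and CG1677 was the nearest protein-coding gene to 1 of 17 summits. The nearest was CBP for 4, brk (brinker, a repressor of Dpp target genes) for 4, unc-119 for 3, Atg5 and CG42780 for 2 each and Dok for 1. In all 13 protein-coding genes lie wholly inside the CG1677 span, and each of the 17 summits also lay in lncRNA:CR44357.

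The strongest of the CG1677 summits was a promoter summit of CBP, 305 bp from its start site, in chrX:7336885-7337272. It ranked 137 with a signal of 858, and ranked 132 and 144 in the replicates. The summit nearest Dok, 806 bp from its start site, ranked 204, with ranks of 219 and 176. Beside brk, summits at 775 and 575 bp ranked 219 and 392. The first of them had no summit within 100 bp in replicate 1 and ranked 323 in replicate 2, and the other ranked 143 and 756. The strongest near unc-119 lay 3073 bp away at rank 470. With the CG1677 span limited to bases that at least 50% of its transcripts cover, 5.11 kb, 1 summit was left in its territory, and with jing limited in the same way, to 8.90 kb, 3 of 11 were left.

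When each summit counted for the gene with the nearest start site alone, 72 of the 100 stayed with their gene, and 71 of 83 (85.5%) without CG1677. In this order over protein-coding genes shn was first with 13, RapGAP1 next with 12, and tara and CHES-1-like, level with ush, had 11. Sbb, jing and px each had 10, crp had 7 and stood at place 21, and CG1677 stood at place 885. Over all 100 summits the median distance to the nearest protein-coding start site was 3112.5 bp, against 831 bp over the list, and 35 lay over 5 kb from any, against 19.8%. Taking summits from long gene spans can lengthen these distances by itself, and the part of gene length was not tested.

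Most summits of the 8 genes were found in both replicates. Among the strongest 4291 peaks of each replicate, 74 of the 100 summits were matched within 100 bp in both (64.3 to 82.3%), against 66.6% of all IDR summits, which lies in that interval. The IDR list held the 4291 strongest peaks of the pooled list, so a summit in it can be weak in 1 replicate. Another 21 were matched in 1 replicate and 5 in neither. In the relaxed lists, 88 had a summit within 100 bp in both, 10 had none in replicate 1 and 2 had none in replicate 2. Some of these lay beside a second IDR summit: in sbb, 2 summits 199 bp apart ranked 2483 and 1494, and the second of them had none within 100 bp in replicate 1. Over the 8 genes, 17 summits lay within 500 bp of another, against 14.4% of all, so the 100 summits are not all separate sites, and with 1 summit per region 91 were left.

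**Figure D5:**
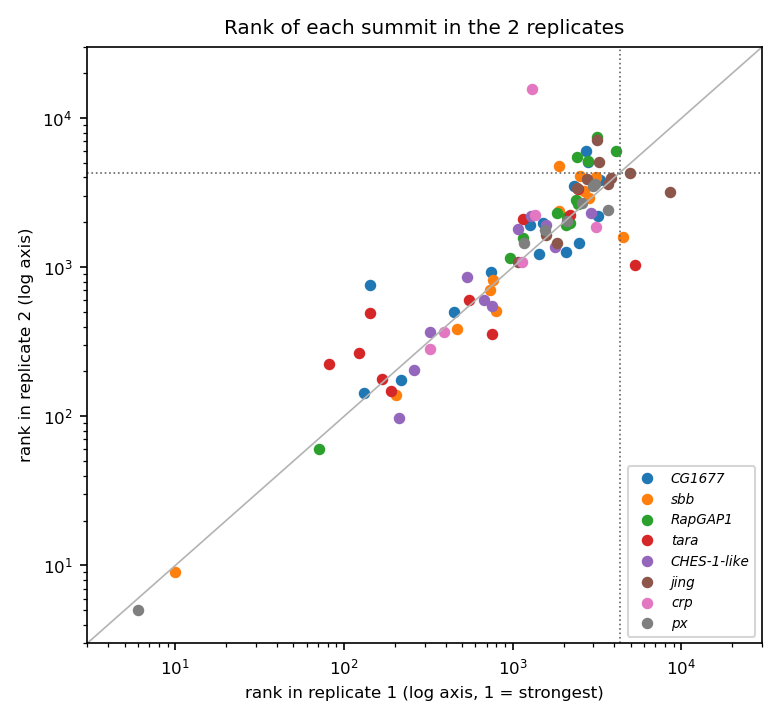
Rank in replicate 1 (horizontal) and in replicate 2 (vertical), both on log axes with 1 the strongest, of the 88 summits with a relaxed summit within 100 bp in both replicates, coloured by gene. The dotted lines mark rank 4291 and the grey line equal ranks: strong summits such as those of px (6 and 5) and sbb (10 and 9) lie close to it, and weaker ones spread.

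Short words were searched on either strand, up to 100 bp from each summit, as a description of the letters there and not of binding. The Odd word ACAGTAGC was found at 2 summits, 1 each in sbb and jing, at ranks 2833 and 4051, against 0.862% of all IDR summits. The Zelda word CAGGTAG, of an activator of the early embryonic genome, was found at 4, 1 each in RapGAP1, tara, CHES-1-like and px, against 1.26%. The tara summit with it was the one 1136 bp upstream, and the CHES-1-like summit was at the first start site. GAGAGAG was found at 9 summits (4.20 to 16.4%), 3 in crp, 2 in CHES-1-like and 1 each in RapGAP1, tara, jing and px, against 6.27%. This count depended on the window: it was 1 within 50 bp and 18 within 200 bp. The 6.27% is for 100 bp alone and is not set against those 2 counts, as a wider window takes in more letters.

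The repeat CACACAC was found at 4 summits, 2 of them in sbb, against 8.44%. It was found at 2 within 50 bp and 19 within 200 bp, and the 8.44% is again for 100 bp alone. Also searched was TATCGATA, the word of the replication-related factor DREF, found at 2 summits, against 1.93%. At 100 summits the counts within 100 bp have wide intervals, and the share over all IDR summits lay inside the interval for each word. The intervals take the summits as separate sites, which not all of them are, so this is a description and no test. The median GC content of the windows was 37.1%, against 36.8% over the list. By gene it ran from 30.3% in CG1677 and 30.8% in CHES-1-like to 43.3% in jing, and single windows ran from 21.4 to 62.2%.

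Other genes with as many summits were taken for comparison, by the largest counts outside the 8. They were ush (a FOG-type cofactor of GATA factors) with 18 summits, shn (a zinc-finger cofactor in Dpp signalling) with 13, Raf (a kinase of the Ras pathway) with 12, kirre (an immunoglobulin-type protein of myoblast fusion) with 12 and Hr4 (a nuclear receptor) with 11. In replicates 1 and 2 they had 16 and 14, 13 and 11, 10 and 9, 12 and 11, and 11 and 11. Per kb of span, ush had 0.249, shn 0.223, Raf 0.207, Hr4 0.136 and kirre, which spans 394 kb, 0.0304. The values of sbb, RapGAP1, tara, px and CG1677 fell within the range of these 5, as did that of jing, while crp and CHES-1-like were above it.

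Lists of related genes were examined for CHES-1-like, sbb, px, RapGAP1 and jing, and none for tara, crp and CG1677. Of the 15 other fork head genes 9 had a summit in their territory, against 39.7% of protein-coding genes, and the highest count was 4 in foxo, against 11 in CHES-1-like. The strongest summits ranked 232 in fkh, 264 in foxo and 265 in bin. The 1 summit of fd3F lay nearest to the start site of ec. In each of the other fork head genes with a summit, the strongest lay nearest to its own. Of the 7 other corepressor genes all had a summit, against the same 39.7% of protein-coding genes. The highest count was 7 in Smr, against 15 in sbb, and the strongest ranked 124 in Gug, 298 in Smr and 300 in gro. The strongest summits of ebi and HDAC1 lay nearest to the start sites of RpLP1 and Src64B. Those of Smr, Gug, Sin3A, CtBP and gro lay nearest to their own. The 1 summit of CtBP ranked 4005, and replicate 1 alone counted 0 in its territory.

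Of the 9 other wing vein genes 8 had a summit, against the same 39.7% of protein-coding genes, and rho had none. The 39.7% covers genes of every length, and of the 834 other genes at least as long as crp 37.2% had no summit. The part of length in the shares of these lists was not tested. Shn was the only one with a count above that of px, with its strongest summit at rank 125, followed by vn at 657 and net at 1115. The strongest summits of vn, bs and kn lay nearest to the start sites of mad2, CG44812 and BEAF-32. Those of shn, net, Egfr, ci and dpp lay nearest to their own. Of the 6 other genes around Rap1, 3 had a summit, near the 39.7% over protein-coding genes, and Rap1 itself had none. The strongest ranked 127 in cno, 1126 in C3G and 1597 in ed. That of ed lay nearest to the start site of Sr-CIII, and those of cno and C3G nearest to their own. Of the 7 other genes of the Polycomb repressive complex 2 list, which holds the complex that mammalian AEBP2 joins and associated genes, 3 had 1 summit each, also near 39.7%. With a territory of 1 kb, 2 genes of this list, jing counted, had a summit in place of 4. The 3 with a summit within 5 kb were E(z) at rank 349, Caf1-55 at rank 28 and Scm at rank 1559, and the last 2 lay nearest to the start sites of mRpS10 and Calr.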

How the data were processed

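The deposited peak lists give each peak a signal value, a score of the authors' peak caller, and a summit offset in bp, another deposited number of each record. Per the text records deposited beside the libraries, a replicate's list was made from its own alignments with a control, the pooled one from both replicates, and the IDR list from all 3. Not given in the sources used here are the caller, the aligner and the IDR threshold. The dm3 lists were not used here. Depth is unknown.

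Summits were assigned with Ensembl release 115 gene models without transposable elements, and coordinates are 1-based on dm6. Python 3.11.15, pandas 2.3.3, numpy 2.4.6 and scipy 1.17.1 were used. Counting was tested on simulated data. No test was run, since 1 group has no contrast. Clopper-Pearson intervals (95%) cover counting only, take all summits as separate sites and serve as no test. The gene members, lists and words were chosen with earlier results of these data known, and the words were recalled as background. Named beside the 8 are genes nearest to their summits, the 5 others with most summits, and up to 3 genes a list by strongest summit. List genes were also named, after their values were seen, for the gene nearest to their strongest summit, and CtBP for its weak summit. Counts of 9 and 10, foxo's count, simj, rho and Rap1 were named after their values were seen. Older symbols of FoxL1, FoxK and PDZ-GEF were matched through RefSeq. Alternatives were other distances, spans, list lengths and each replicate alone.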

Additional observations from a re-analysis of the deposited data

How the results depend on the processing

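Of 35 alternative values of the main counts and shares, 26 stayed within the limit set for them: 1.5 times for a count, the 95% interval for a share and the spread between replicates for a density. The density with the gene span alone is 1 of these and equals the main value by construction. The limit for a density was made from the values of the 2 replicates, so the densities without a replicate are no separate check. With the stronger 50% of the IDR list, which has fewer peaks by construction, the 8 genes held 59 summits in place of 100, the median was 0.0884 per kb in place of 0.169, and 5 of the 8 stood among the 20 genes with most summits. A territory of 10 kb gave 0.150 per kb. The densities for territories of 1 and 10 kb divide the summits in the territory by the span with that distance added on each side. They are thus another measure than the main density, which uses the span alone. The promoter share was 30% with promoters of 1000 bp and 10% with 200 bp, in place of 16%, as the window takes in more or fewer bases by construction. Matching in both replicates was 62% within 50 bp and 88% with any relaxed peak. The share with the own start site nearest was 60% when every annotated gene counted, and 85.5% without CG1677, a setting chosen after seeing the data. Leaving out a replicate gave 96 to 99 summits, 0.157 to 0.181 per kb, 6 to 7 genes in the top 20 and a promoter share of 15.2 to 16.7%. With spans covered by at least 50% of the transcripts, also chosen after seeing the data, 76 summits and 6 genes in the top 20 were left, and CG1677 fell from 17 summits to 1 and jing from 11 to 3. No paired analysis was possible because there is 1 group.

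The limits are those of peak lists. Weak summits near the IDR threshold cannot be graded by depth, and a summit in a span need not belong to that gene. No untagged or input library was analysed here, so how much of the signal depends on the tag was not tested.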
